A study of Mus musculus with 36 samples.

Results

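The 9 genes described here (Sox10, S100b, Gfap, Ednrb, Erbb3, Foxd3, Fabp7, Cdh19 and Sox2) mark the identity of enteric glial cells (EGCs), the supporting cells of the gut's own nervous system. They were taken as a list of names rather than by a threshold on measured values, with earlier results of these data known, and all 9 were found among the 43472 gene rows of the count table. The data are read counts at transcript 3′ ends from 36 RNA libraries of primary EGC cultures, which were grown as neurospheres from the whole intestine of wild-type C57BL/6J mouse embryos and then differentiated in serum. The cells were left unstimulated, or received conditioned medium of digested healthy colon (H-CM) or of digested orthotopic MC38 colon tumours (TME-CM), where MC38 is a mouse colon carcinoma line. Cells were taken after 6 h, 12 h or 24 h, with 4 libraries in each of the 9 groups, and no genotype, deletion or drug differed between groups. The labels number the replicates 1 to 4 without saying whether they were separate cultures, so p-values measure only the spread between these libraries, which may be technical.

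Enteric glia arise from neural crest cells that enter the gut before birth. In that lineage the transcription factor SOX10 is needed both to keep progenitors and to form glia, and it acts together with FOXD3 and SOX2, which hold neural crest cells in an undifferentiated state. The endothelin receptor EDNRB and the neuregulin receptor ERBB3 carry outside signals to these cells, and S100B, GFAP, FABP7 and CDH19 are proteins by which glia and their precursors are recognised. In gut inflammation and injury, enteric glia are known to take on reactive states in which such genes can shift.

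Total counts ranged from 13518 to 5244763 (median 1526580) at 6 h, from 2005239 to 5961933 at 12 h and from 1608018 to 7552509 at 24 h. The libraries of 6 h stood apart in depth and spread. Replicate 4 of H-CM held 13518 counts and replicate 3 of unstimulated EGCs held 256453, so that 1 count of any gene weighed heavily there. Among the TME-CM libraries, replicate 1 had counts in 10120 genes from a total of 4158689 and replicate 3 in 10433 genes from 2919357. The common dispersion, a measure of the spread between replicates, fell from 0.572 at 6 h to 0.122 at 12 h and 0.0455 at 24 h. Mitochondrial genes took 4.83% to 25.01% of the counts at 6 h, with the 4 TME-CM libraries at 10.7% to 25.01%, and 1.93% to 6.88% at 12 h and 24 h. Levels are given below as CPM (read counts scaled to library size) after trimmed-mean (TMM) scaling. Since the reads come from transcript ends and were not set against gene length, levels are compared between groups and not between genes.

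The label of the cells was checked against markers of other cell types. The 9 genes were detected at 12 h and 24 h in every group, with a summed level per library of 217 to 290 CPM. Smooth muscle markers (9 listed) summed to a median of 8132 CPM in unstimulated EGCs, 3671 CPM with H-CM and 2331 CPM with TME-CM at 24 h, and their library ranges (7561 to 8649, 3490 to 4394 and 1883 to 2676 CPM) did not overlap. The 7 fibroblast markers summed to medians of 7523, 5742 and 7777 CPM in the same order, and the 9 enteric neuron markers to 429, 442 and 492 CPM. The 7 macrophage markers in the table lay at medians of 104, 138 and 132 CPM, the 4 endothelial markers at 38.7, 44.7 and 15.0 CPM, the 2 markers of interstitial cells of Cajal at 120, 117 and 49.6 CPM, and the 5 epithelial markers at 4.91, 3.43 and 1.81 CPM. The epithelial gene Krt8 was at 0 in all 3 of these groups, Epcam was at 0 with H-CM, and the endothelial gene Tek was at 0 with TME-CM. Markers of muscle and fibroblasts were thus present in every group, and the part of such cells in the results for the 9 genes was not tested. In bulk libraries, fewer cells of a type and less RNA per cell cannot be told apart.

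**Figure D1:**
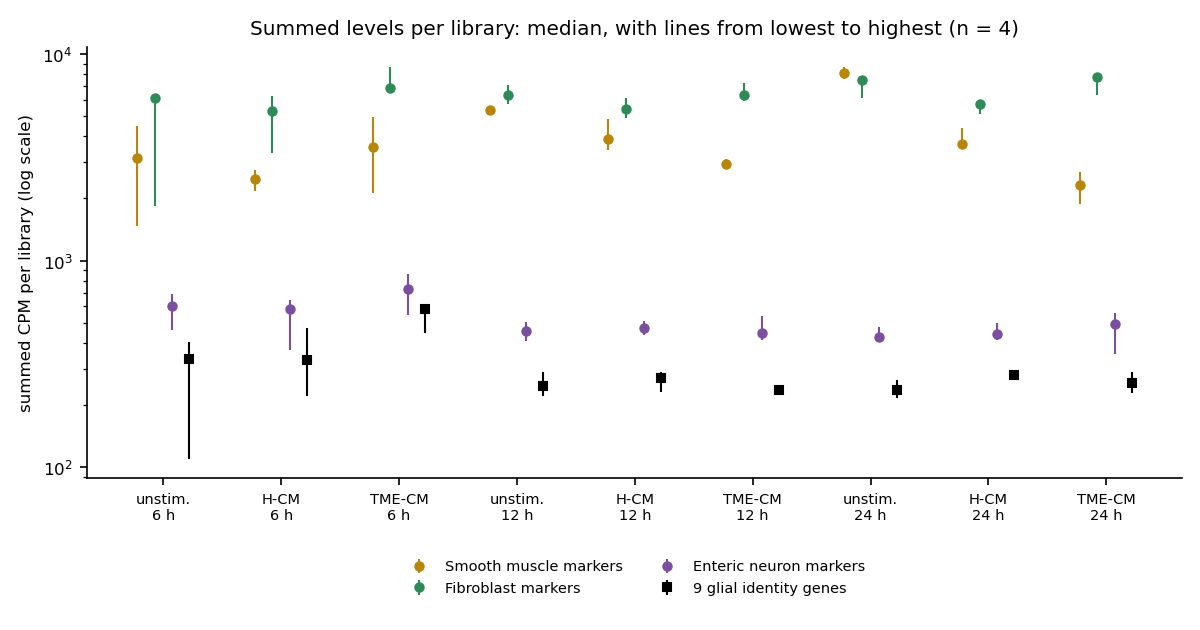
Summed CPM per library (log axis) of smooth muscle, fibroblast and enteric neuron markers and of the 9 glial identity genes in the 9 groups of stimulation and time; points are medians of 4 libraries and lines run from the lowest to the highest library. At 24 h the smooth muscle sum falls from a median of 8132 CPM in unstimulated EGCs to 2331 CPM with TME-CM, while the sum of the 9 glial genes lies at medians of 237, 278 and 254 CPM.

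Promoter sequences are shown for the 2 genes on which the results below turn, Ednrb and S100b, as the 250 bases before the annotated start in RefSeq (build GRCm38.p6), read 5′ to 3′ on the strand of the gene. The table of promoters held 6 of the 9 genes, and Sox10, Erbb3 and Cdh19 were not among them. Capitals mark the letters CCAAT, the binding letters of a general promoter factor, or their reverse complement ATTGG, a choice made after the sequences were seen.
Ednrb, chr14:103843702-103843951, minus strand: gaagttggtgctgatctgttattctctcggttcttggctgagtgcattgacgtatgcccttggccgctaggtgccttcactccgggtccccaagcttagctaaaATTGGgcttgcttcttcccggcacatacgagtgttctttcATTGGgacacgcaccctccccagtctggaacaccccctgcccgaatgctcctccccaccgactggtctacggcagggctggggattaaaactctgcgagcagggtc
S100b, chr10:76253586-76253835, plus strand: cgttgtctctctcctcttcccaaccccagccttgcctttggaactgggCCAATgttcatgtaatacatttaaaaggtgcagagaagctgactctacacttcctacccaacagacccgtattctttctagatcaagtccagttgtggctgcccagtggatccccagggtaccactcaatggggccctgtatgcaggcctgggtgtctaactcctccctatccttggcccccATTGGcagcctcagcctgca

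Both windows held 2 matches to CCAAT on either strand, as did that of Fabp7, and 33.8% of all 32851 promoters of this length held at least 1. The SOX core letters ACAAT (27.7% of promoters) and the related ACAAAG (16.5%) were searched on both strands, and neither lay in the windows of Ednrb or S100b. The window of Fabp7 held 1 match to ACAAT and that of Sox2 held 1 match to ACAAAG. The GENCODE M21 annotation of the same build places the start of Ednrb at chr14:103844402, so that the printed window lies inside the gene there. The bases before that start were not searched. In that annotation, the exons of 8 of the 9 genes overlapped no exon of another gene. Those of Foxd3 (chr4:99656299-99658622, plus strand) overlapped Gm23366 on the same strand, so that reads there could be split or lost in counting.

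At 24 h, the time with the deepest and closest replicates, TME-CM was set against H-CM to ask whether factors from a tumour change the cells beyond those from healthy colon. None of the 9 genes passed the test (0 of 9 by edgeR's quasi-likelihood test at an adjusted p under 0.05), while 5.4% of all genes tested did. At an unadjusted p under 0.05 there was 1 of 9, S100b, beside 2036 of all 12713 genes tested. At an adjusted p under 0.05, DESeq2's Wald test called 1, S100b, where edgeR had called 0. The median log2 fold change of the 9 genes was 0.01, beside 0.01 over all genes. At 12 h, 0 of 9 passed, beside 1.89% of all genes, and DESeq2 called 0. The unadjusted p was under 0.05 for 1, beside 1288 of all 12156 genes. At 6 h, 0 of the 8 tested genes passed, beside 0.0972% of all genes, and DESeq2 called 0. The unadjusted p was under 0.05 for 1 (Ednrb), beside 562 of all 9256 genes. Gfap did not pass the filter on low counts at 6 h and was not tested there.

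**Figure D2:**
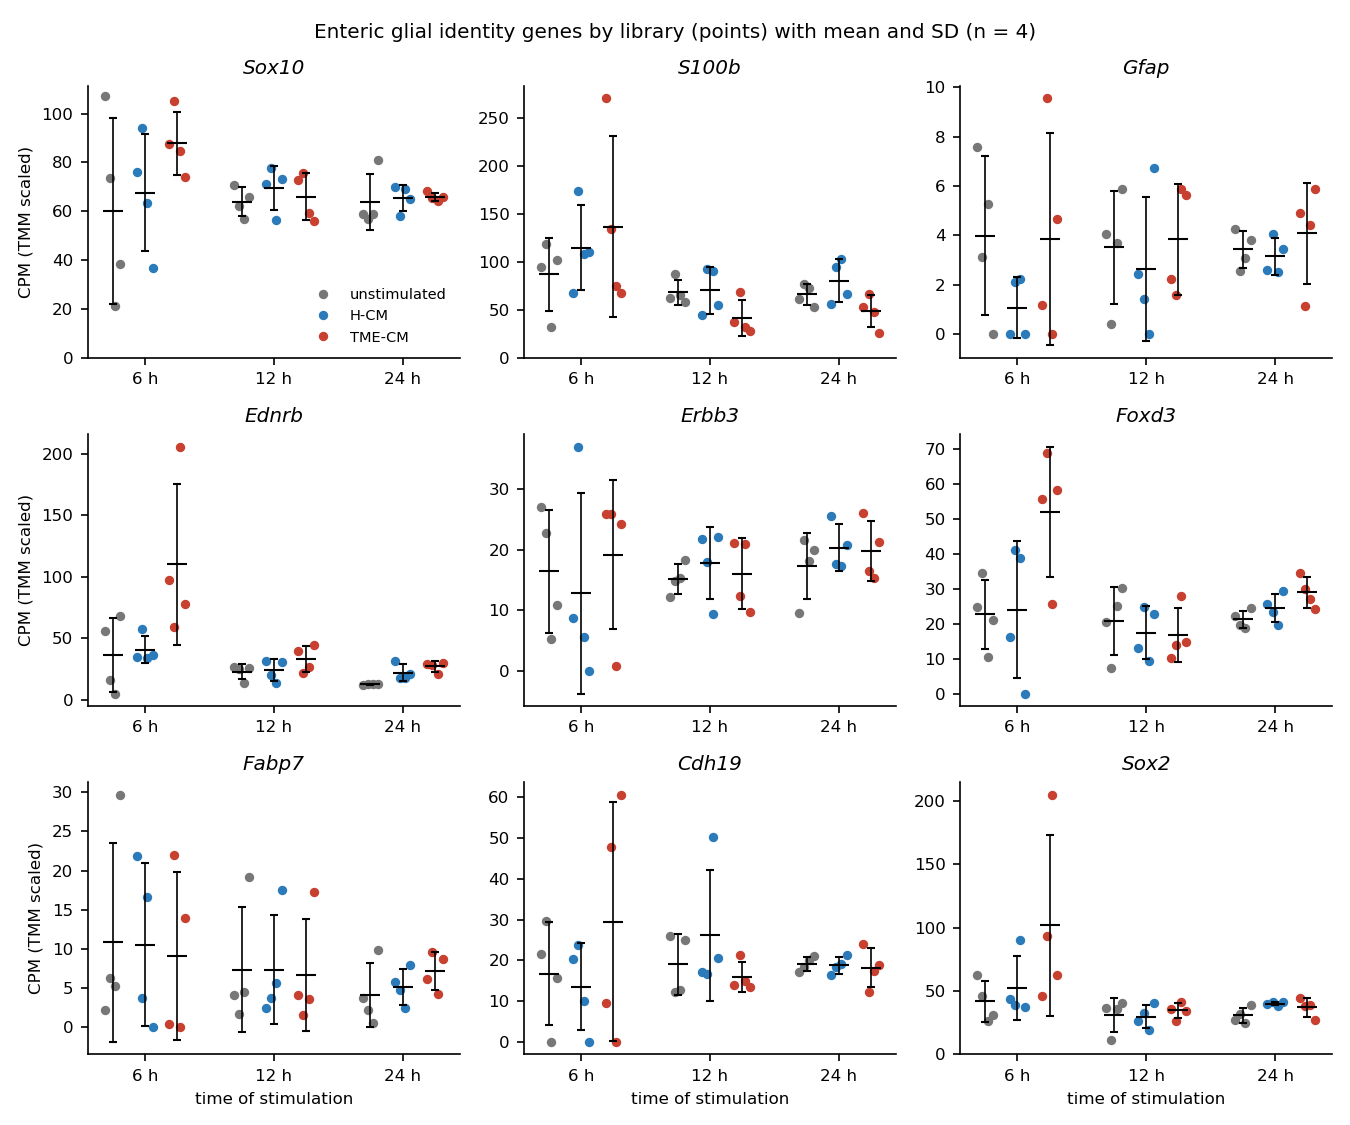
CPM after TMM scaling (vertical axes, which differ between panels) of each of the 9 genes in every library by time of stimulation; grey points are unstimulated EGCs, blue points H-CM and red points TME-CM, and black bars give the mean and SD of 4 libraries. Sox10 lies between 56.0 and 81.1 CPM in all 24 libraries of 12 h and 24 h, and the 4 unstimulated libraries of 24 h have the lowest mean Ednrb (12.8 CPM).

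Sox10, the transcription factor that defines the glial lineage of the gut, had the smallest error of the 9 in TME-CM against H-CM at 12 h and at 24 h. At 24 h it lay at 58.9, 56.7, 58.7 and 81.1 CPM in unstimulated EGCs, at 69.8, 57.9, 69.1 and 64.9 CPM with H-CM and at 68.2, 65.2, 64.2 and 65.8 CPM with TME-CM. The ranges overlapped, and the means were 63.8 ± 11.5, 65.4 ± 5.48 and 65.8 ± 1.72 CPM (SD, n = 4). The log2 fold change between TME-CM and H-CM was 0.01 (SE 0.137, edgeR adjusted p = 0.991), with a 95% interval of −0.28 to 0.29. At 12 h the levels ran from 56.7 to 70.7 CPM unstimulated, from 56.6 to 77.5 CPM with H-CM and from 56.0 to 75.6 CPM with TME-CM, and the log2 fold change was −0.07 (SE 0.184, edgeR adjusted p = 0.934). At 6 h the spread was wider. The 4 unstimulated libraries held 107, 73.6, 21.0 and 38.4 CPM, the last but one from 4 counts, and the H-CM library with 13518 counts held a single Sox10 count. The log2 fold change at 6 h was 0.24, and its interval of −0.76 to 1.24 spans changes of either sign.

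Sox2, which keeps neural progenitors in an undifferentiated state, lay at 39.3, 41.2, 38.1 and 41.1 CPM with H-CM at 24 h. With TME-CM it lay at 44.1, 38.0, 38.6 and 26.9 CPM and in unstimulated EGCs at 27.3, 31.6, 24.7 and 38.6 CPM. The 4 H-CM libraries were close together, inside the range of TME-CM, and the log2 fold change of TME-CM against H-CM was −0.12 (SE 0.172, edgeR adjusted p = 0.832). It was 0.23 (SE 0.309, edgeR adjusted p = 0.867) at 12 h and 0.85 (SE 0.542, edgeR adjusted p = 0.911) at 6 h. Its widest spread came at 6 h, when replicate 3 of TME-CM held 205 CPM and the other three between 45.8 and 93.6 CPM.

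Foxd3, a neural crest factor that also holds cells in a progenitor state, averaged 21.2 ± 2.54 CPM unstimulated, 24.4 ± 4.04 CPM with H-CM and 28.9 ± 4.38 CPM with TME-CM at 24 h (SD, n = 4). The ranges of the last 2 groups overlapped (19.6 to 29.2 and 24.2 to 34.5 CPM), and the log2 fold change was 0.26 (SE 0.181, edgeR adjusted p = 0.545). It was −0.06 (SE 0.400, edgeR adjusted p = 0.979) at 12 h and 0.80 (SE 0.664, edgeR adjusted p = 0.911) at 6 h. Of the 36 pairs that the 9 genes form, Foxd3 and Sox2 followed each other most closely. Over the 24 libraries of 12 h and 24 h, in which the 4 of a group share a stimulation and a time and are not independent points, Pearson's r of their log2 CPM was 0.78 and Spearman's rho 0.76.

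Ednrb, the receptor for endothelin 3 and endothelin 1 that guides neural crest cells along the gut, was the only one of the 9 that the main edgeR test called in a comparison of stimulations, while S100b was called there under some alternatives. At 24 h it lay at 12.5, 12.7, 13.3 and 12.9 CPM in unstimulated EGCs, the set with the lowest coefficient of variation (2.45%) of any gene and group here. With H-CM it lay at 31.9, 17.7, 18.1 and 21.3 CPM and with TME-CM at 29.6, 28.4, 21.0 and 30.4 CPM. Every stimulated library was above every unstimulated one, and the ranges of the 2 stimulated groups overlapped. For single comparisons, here and below, the share of all genes with ranges that did not overlap was not counted. Ednrb rose 2.12-fold with TME-CM over unstimulated cells, a log2 fold change of 1.08 (SE 0.208, edgeR adjusted p = 0.000983), with an interval of 0.65 to 1.51. It was the 1 of 9 genes called in this comparison, in which 9.52% of all genes were called. With a dispersion estimated over all 36 libraries, those of 6 h included, the log2 fold change was 1.09 and the call was lost (edgeR adjusted p = 0.307). The gain with H-CM, set against the same unstimulated libraries, was 1.73-fold (log2 0.79, SE 0.210) and missed the threshold (edgeR adjusted p = 0.0552). In that comparison 0 of 9 genes were called by edgeR, beside 2.03% of all genes, and DESeq2 called Ednrb alone. The unadjusted p was under 0.05 for 2 of 9, beside 1349 of all 12713 genes. TME-CM against H-CM gave a log2 fold change of 0.29 (SE 0.205, edgeR adjusted p = 0.550), with an interval of −0.13 to 0.72.

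The group means of Ednrb were higher at the earlier times. The main edgeR test called no change of Ednrb over time, and the fall with TME-CM from 6 h to 12 h, described with the other changes over time, was called by DESeq2 and under other alternatives. At 12 h it lay at 27.0, 25.4, 14.0 and 25.9 CPM unstimulated, at 31.7, 20.3, 13.5 and 31.0 CPM with H-CM and at 40.0, 21.6, 27.2 and 44.5 CPM with TME-CM, and all 3 ranges overlapped. TME-CM against H-CM was 0.48 on the log2 scale (SE 0.307, edgeR adjusted p = 0.651). At 6 h it lay at 97.1, 59.2, 206 and 78.4 CPM with TME-CM and at 35.0, 57.5, 34.4 and 36.8 CPM with H-CM, the last from 1 count. These ranges did not overlap, the log2 fold change was 1.36 (SE 0.597), and it was not called (edgeR adjusted p = 0.794). Without the 2 libraries of 6 h that had under 300000 counts, an alternative chosen after seeing the data, it was 1.42 and was not called either (edgeR adjusted p = 0.666). Mitochondrial genes took more of the counts in each of these 4 TME-CM libraries (10.7% to 25.01%) than in the H-CM libraries (5.87% to 7.99%), and their part in the difference was not tested. In the order of its 9 group means, only the lowest (unstimulated, 24 h) and the highest (TME-CM, 6 h) did not overlap their neighbour. For each of the other 8 genes, every neighbouring pair of groups overlapped. Over all 13469 genes kept in the 36 libraries, 5.61% had at least 1 such gap and 0.349% at least 2.

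Erbb3, the receptor that joins ERBB2 to pass on neuregulin signals to glial precursors, showed no called change. At 24 h it averaged 17.3 ± 5.37 CPM unstimulated, 20.3 ± 3.82 CPM with H-CM and 19.8 ± 4.87 CPM with TME-CM (SD, n = 4), with overlapping ranges. TME-CM against H-CM was −0.02 on the log2 scale (SE 0.240, edgeR adjusted p = 0.982) at 24 h, −0.14 (SE 0.328, edgeR adjusted p = 0.932) at 12 h and 0.25 (SE 1.02, edgeR adjusted p = 0.986) at 6 h. At 6 h, replicate 3 of TME-CM held 2 Erbb3 counts (0.822 CPM), while the other three lay between 24.1 and 25.9 CPM.

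**Figure D3:**
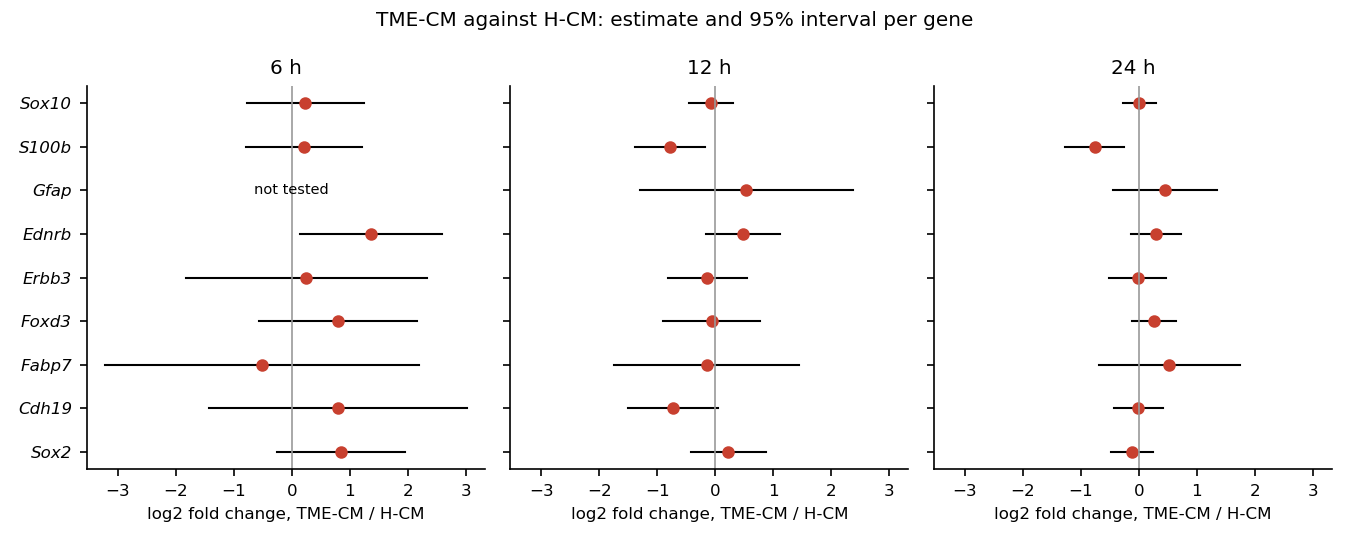
Log2 fold change of TME-CM against H-CM (horizontal axis) for each gene, with 1 panel for each time; red points are edgeR estimates and lines are 95% intervals. The line at 0 lies outside the interval for S100b at 12 h and 24 h and for Ednrb at 6 h, and none of these passed the adjustment over all genes; Gfap was not tested at 6 h.

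S100b, a calcium-binding protein of mature glia, gave the lowest estimate of the 9 genes with TME-CM against H-CM at 12 h and at 24 h. At 24 h it lay at 52.7, 66.8, 48.2 and 26.2 CPM with TME-CM, at 55.9, 94.8, 103 and 66.9 CPM with H-CM and at 61.4, 77.4, 73.2 and 53.0 CPM in unstimulated EGCs. The ranges overlapped, and each TME-CM library lay below the H-CM and the unstimulated library of the same replicate number. The labels do not say that a number pairs libraries. Over many genes, deviations of same-numbered libraries of 24 h correlated at −0.144 to 0.298 for TME-CM with H-CM. For TME-CM with unstimulated EGCs they correlated at −0.39 to 0.191. The log2 fold change of TME-CM against H-CM was −0.76 (SE 0.240, interval −1.27 to −0.25), with an edgeR adjusted p of 0.0847. It lay near the threshold, and it was called under 5 of 14 alternatives. DESeq2 gave an adjusted p of 0.0375, and edgeR gave 0.0149 with the replicate number as a block, 0.000140 without the filter on low counts, 0.0247 without replicate 1 of H-CM and 0.0305 without replicate 2 of TME-CM. The other 9 alternatives gave no call. At 12 h S100b lay at 36.8, 68.4, 31.6 and 28.0 CPM with TME-CM, at 44.4, 92.2, 90.1 and 54.9 CPM with H-CM and at 62.1, 86.9, 65.9 and 57.9 CPM unstimulated. Here the highest TME-CM library, replicate 2, overlapped both other groups, and the other three were below every library of both. By replicate number, TME-CM was again below both other groups in 4 of 4, and the share of all genes with such an order was not counted. The log2 fold change was −0.78 (SE 0.287, edgeR adjusted p = 0.252), and without that library it was −1.14 (edgeR adjusted p = 0.0346). At 6 h it was 0.22 (SE 0.487, edgeR adjusted p = 0.961). Against unstimulated EGCs, S100b with TME-CM was −0.47 on the log2 scale (SE 0.240, edgeR adjusted p = 0.305) at 24 h and −0.74 (SE 0.289, edgeR adjusted p = 0.222) at 12 h.

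Gfap, the intermediate filament of astrocytes and of some enteric glia, was near the limit of detection. Its group means lay between 1.08 and 4.09 CPM and its counts between 0 and 46 in a library. At 24 h the 4 TME-CM libraries held 34, 3, 33 and 35 counts and the 4 H-CM libraries 13, 25, 23 and 7. The log2 fold change was 0.45 (SE 0.430, edgeR adjusted p = 0.701) at 24 h and 0.54 (SE 0.882, edgeR adjusted p = 0.894) at 12 h. The interval at 24 h ran from −0.45 to 1.34 and spans changes of either sign.

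Cdh19, a cadherin of neural crest and Schwann cell precursors, was even across the groups of 24 h, with 19.1 ± 1.75 CPM unstimulated, 18.7 ± 2.04 CPM with H-CM and 18.2 ± 4.86 CPM with TME-CM (SD, n = 4). The log2 fold change of TME-CM against H-CM was −0.01 (SE 0.202, edgeR adjusted p = 0.990). At 12 h it was −0.73 (SE 0.369, edgeR adjusted p = 0.509), where replicate 3 of H-CM held 50.2 CPM and the other three between 16.6 and 20.6 CPM. Without that library the estimate fell in size to −0.21. At 6 h it was 0.80 (SE 1.08, edgeR adjusted p = 0.937), with counts of 0 in 3 of the 12 libraries.

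Fabp7, the fatty acid binding protein of radial glia and glial precursors, was highest at 12 h in the library of the same replicate number under all 3 stimulations. At 12 h replicate 4 held 19.2 CPM unstimulated, 17.6 CPM with H-CM and 17.2 CPM with TME-CM. The other 9 libraries of that time lay between 1.60 and 5.70 CPM. At 24 h replicate 4 was again the highest of the unstimulated libraries (9.89 CPM) and of the H-CM libraries (7.92 CPM), and with TME-CM replicate 2 was highest (9.59 CPM) with replicate 4 next (8.73 CPM). Replicate 4 was thus the highest in 5 of the 6 groups of 12 h and 24 h. S100b showed the same for another number: replicate 2 was highest in 5 of these 6 groups. These cases were picked from all 9 genes, and the share of all genes with such an order was not counted. Same-numbered libraries of 12 h correlated best with their own number in 3 of 12 pairs. TME-CM against H-CM gave log2 fold changes for Fabp7 of 0.52 (SE 0.577, edgeR adjusted p = 0.751) at 24 h, −0.15 (SE 0.757, edgeR adjusted p = 0.970) at 12 h and −0.51 (SE 1.32, edgeR adjusted p = 0.969) at 6 h, the widest errors of the tested genes in each comparison but that of Gfap at 12 h.

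**Figure D4:**
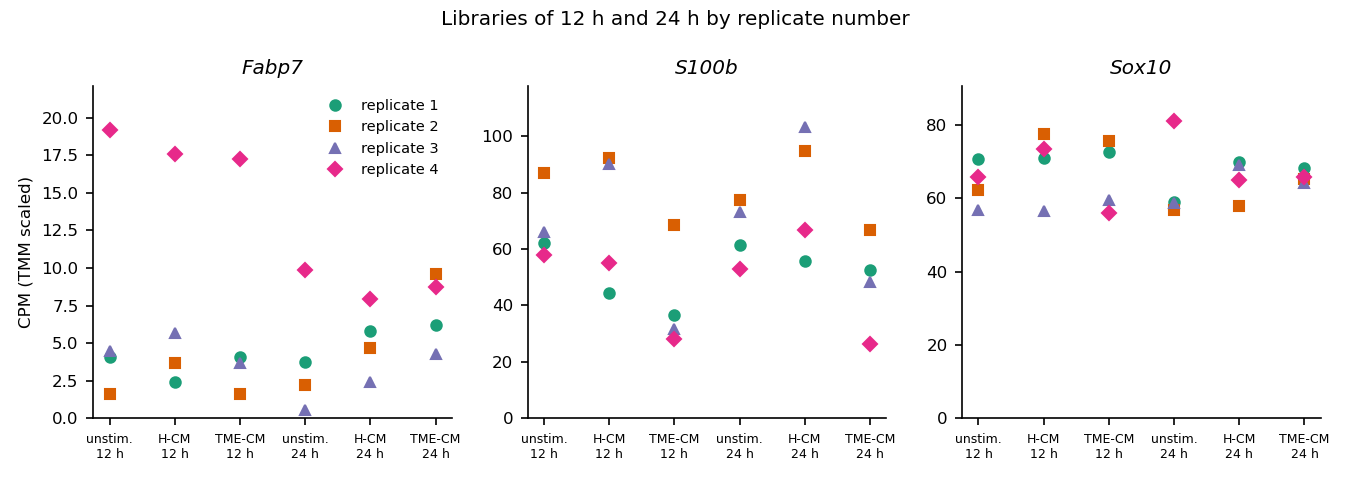
CPM after TMM scaling (vertical axes from 0) of Fabp7, S100b and Sox10 in the 24 libraries of 12 h and 24 h, with 1 symbol and colour for each replicate number. Replicate 4 stands at 17.2 to 19.2 CPM for Fabp7 in all 3 groups of 12 h, above 5.70 CPM in the other libraries; Sox10 shows no such order.

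In the remaining comparisons of stimulations, 0 of 8 genes were called with TME-CM against unstimulated EGCs at 6 h, beside 0.454% of all genes, and 0 of 9 at 12 h, beside 4.41%. By edgeR, 2 and 1 of them had an unadjusted p under 0.05, beside 573 of all 9256 and 1492 of all 12156 genes. DESeq2 called 0 in each. H-CM against unstimulated EGCs gave 0 of 8 genes at 6 h, beside 0% of all genes (58 genes with an unadjusted p under 0.05), and 0 of 9 at 12 h, beside 0.403%. None of the 9 had an unadjusted p under 0.05 in either, beside 688 of all 12156 genes at 12 h, and DESeq2 called 0.

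Time was compared within each stimulation, where hours in culture and hours of stimulation go together. From 6 h to 12 h, 1 of 9 genes was called with TME-CM, beside 1.39% of all genes. This was S100b, which fell by 1.76 on the log2 scale (SE 0.409, edgeR adjusted p = 0.0195) from 271, 135, 74.4 and 67.3 CPM to the values given above. The ranges overlapped at 1 library, replicate 2 of 12 h, and replicate 1 of 6 h was far above the others. Without the latter the fall was 1.18 and was not called (edgeR adjusted p = 0.0911). The call was also lost without replicate 1, 3 or 4 of 12 h, with estimates from −1.71 to −1.61. In the same comparison Ednrb gave −1.76 (SE 0.479, edgeR adjusted p = 0.0512) and Sox2 gave −1.59 (SE 0.448, edgeR adjusted p = 0.0577), each with ranges that did not overlap. The share of all genes without overlap here was not counted. The unadjusted p was under 0.05 for 4 of the 9 genes, beside 2199 of all 12668. Foxd3 gave −1.65 (SE 0.542, edgeR adjusted p = 0.101), and Sox10 gave −0.43 (SE 0.342, edgeR adjusted p = 0.540). The median of the 9 genes was −0.89, beside 0.03 over all genes. DESeq2 called S100b, Ednrb, Foxd3 and Sox2, and edgeR called S100b, Ednrb and Sox2 once the 2 libraries of 6 h with under 300000 counts were left out. With the replicate block edgeR called S100b and Ednrb. The share of all genes called was not counted under these alternatives, so these calls cannot be set against 1.39%. The libraries compared differed in their makeup: mitochondrial genes took 10.7%, 11.1%, 15.2% and 25.01% of the counts with TME-CM at 6 h and 2.04% to 3.23% at 12 h. The part of this difference in the falls of S100b, Ednrb, Sox2 and Foxd3 was not tested.

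Over the same interval 0 of 9 genes were called in unstimulated EGCs, beside 0.205% of all genes, and 0 of 9 with H-CM, beside 0.0395%. None had an unadjusted p under 0.05, beside 768 and 685 of all 12668 genes, and DESeq2 called 0. From 12 h to 24 h, 0 of 9 were called in unstimulated EGCs (0.0153% of all genes), with H-CM (0.00763%) and with TME-CM (0.626%). DESeq2 called 0 in each. By edgeR, 1, 0 and 1 of the 9 had an unadjusted p under 0.05, beside 694, 817 and 1034 of all 13105 genes. The one in unstimulated EGCs was Ednrb, whose 4 libraries of 24 h all lay below those of 12 h (log2 fold change −0.84, SE 0.275, edgeR adjusted p = 0.658). The change of the TME-CM effect over H-CM between times was tested directly and was called for 0 of 9 genes from 6 h to 12 h (0% of 12668 genes) and from 12 h to 24 h (0% of 13105 genes). None of the 9 had an unadjusted p under 0.05 in either by edgeR, beside 1228 of 12668 and 436 of 13105 genes, and DESeq2 called 0.

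Genes around the 9 were then counted from lists of their pathways, chosen with earlier results of these data known. Over all 12713 genes, 349 were called higher and 337 lower with TME-CM against H-CM at 24 h. In TME-CM against H-CM at 24 h, the endothelin list (6 genes, 5 tested) had 0 genes called higher and 1 lower. This was Edn3, the ligand of EDNRB, which fell from 10.4 ± 4.10 to 4.72 ± 2.31 CPM (SD, n = 4; log2 fold change −1.26, SE 0.362, edgeR adjusted p = 0.0423), with overlapping ranges. Edn3 was not called with TME-CM against unstimulated EGCs at 24 h (log2 fold change −0.84, SE 0.363, edgeR adjusted p = 0.191) or against H-CM at 12 h (−1.44, SE 0.649, edgeR adjusted p = 0.423). The list's median log2 fold change was 0.25. At 12 h, when 148 of all 12156 genes were called higher and 82 lower, the list had 1 gene called higher and 0 lower. This was Ednra, the other endothelin receptor, which rose from 12.1 ± 2.46 to 33.3 ± 4.65 CPM (SD, n = 4; log2 fold change 1.47, SE 0.291, edgeR adjusted p = 0.00699), with ranges that did not overlap. Ednra was also called higher with TME-CM than in unstimulated EGCs at 12 h (1.66, SE 0.298, edgeR adjusted p = 0.00113) and at 24 h (1.36, SE 0.239, edgeR adjusted p = 0.000393). Against H-CM at 24 h it was 0.50 on the log2 scale (SE 0.233, edgeR adjusted p = 0.294) and was not called. The ErbB and neuregulin list (14 genes, 9 tested) had 2 called higher and 0 lower, with a median of 0.42. Ereg, a ligand of the ErbB family, rose from 7.65 ± 4.38 to 32.6 ± 8.39 CPM (SD, n = 4; log2 fold change 2.15, SE 0.331, edgeR adjusted p = 0.000322). Errfi1, an inhibitor of these receptors, rose by 1.33 on the log2 scale (SE 0.315, edgeR adjusted p = 0.0121). For Erbb3 itself the interval in this comparison was −0.52 to 0.47.

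Of the 18 other neural crest and glial transcription factors, 15 were tested, 0 were called higher and 2 lower, with a median of −0.22. Sox9, a SOX factor that comes before Sox10 in the neural crest, was at 90.7 ± 3.29 CPM with H-CM, 54.2 ± 11.7 CPM with TME-CM and 53.2 ± 11.9 CPM unstimulated (SD, n = 4). It was lower with TME-CM than with H-CM by −0.74 on the log2 scale (SE 0.166, edgeR adjusted p = 0.00810) and was called higher with H-CM than in unstimulated EGCs. Id2, an inhibitor of helix-loop-helix factors, gave −0.48 (SE 0.137, edgeR adjusted p = 0.0389). The Notch list (15 genes, 10 tested) had 1 gene higher and 1 lower, with a median of −0.41. Hey1, a target of Notch signalling, fell from 15.3 ± 1.44 to 3.93 ± 0.967 CPM (SD, n = 4; log2 fold change −1.99, SE 0.292, edgeR adjusted p = 0.000139), and Rbpj, which binds DNA for the pathway, rose by 0.56 (SE 0.162, edgeR adjusted p = 0.0459).

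The list of other enteric glial markers (24 genes, 22 tested) had 0 called higher and 4 lower, with a median of −0.06 beside 0.01 over all genes. Cspg4, a proteoglycan also found on pericytes, fell by 1.42 on the log2 scale (SE 0.197, edgeR adjusted p = 0.000102). Sparcl1, a secreted matrix protein, fell by 1.29 (SE 0.288, edgeR adjusted p = 0.0182), Cryab, a small heat shock protein that muscle also makes, by 0.53 (SE 0.137, edgeR adjusted p = 0.0204), and Prnp by 0.51 (SE 0.138, edgeR adjusted p = 0.0305). In the same comparison 4 of the 8 tested smooth muscle markers were called lower and 0 higher, with a median of −0.74. Of the 7 fibroblast markers, 4 were higher and 1 lower, and of the 9 enteric neuron markers 0 were called in either direction. Against unstimulated EGCs, TME-CM at 24 h had 1 glial marker higher and 8 lower of 22, and 8 of 8 smooth muscle markers lower. Over all 12713 genes, 613 were called higher and 597 lower there. Sox10 in that comparison was 0.04 on the log2 scale (SE 0.136, edgeR adjusted p = 0.947).

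Likeness to Sox10 was measured over the 24 libraries of 12 h and 24 h among the 10035 genes that averaged 5 CPM or more. Specc1l (Pearson's r 0.59, Spearman's rho 0.56), Sema3b (0.59 and 0.57) and Ccdc9 (0.58 and 0.66) were among the 5 genes most like it that are not members. The median over all genes was 0.01. Among the other members Erbb3 came nearest, at rank 382 (r 0.38), and Ednrb came at rank 1096 (r 0.27). S100b had r −0.03 with Sox10 and −0.61 with Ednrb, the lowest of the 36 pairs. With values of Sox10 this close together, these figures describe small differences between libraries.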

How the data were processed

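Bulk 3′ mRNA libraries (QuantSeq, Lexogen, HiSeq4000) were made from EGC cultures. The deposited values are raw counts per gene: the authors used FastQC 0.11.7 for quality and fastq-mcf to remove adapters, mapped reads with HISAT2 (mm10, default settings), discarded reads with several positions, used SAMtools 1.5 and counted with HTSeq. The annotation, the strand setting and any use of molecular identifiers are not given in the sources used here. From the counts, edgeR 4.0.16 (R 4.3.3) tested each time point over its 12 libraries (TMM scaling, filterByExpr with a minimum of 10, robust quasi-likelihood, Benjamini-Hochberg over all genes kept, calls at 0.05). Changes over time used the 24 libraries of 2 adjacent times. There were 17 comparisons. SE is the log2 fold change over the root of F, and 95% intervals use its degrees of freedom. The script was tested on simulated data. DESeq2 1.42.0, DESeq2 size factors, no filter, a replicate block (the numbers paired libraries by their correlated deviations only for H-CM and unstimulated EGCs at 24 h), all 36 libraries in 1 model, the row Yam1 (11.0% to 48.6% of counts) left out, and each library left out in turn were the alternatives. Members, pathway lists and markers were chosen with earlier results of these data known. All 9 members are named; from each pathway list, at most 4 called genes of TME-CM against H-CM at 24 h; and, of the 5 genes most like Sox10, 3, the others being not reported here. Counting error falls with depth: 3 counts amount to between 0.572 and 222 CPM in the libraries of 6 h.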

Additional observations from a re-analysis of the deposited data

Results flagged for a closer look

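In 10 of the 81 sets of 4 libraries (9 genes in 9 groups), 1 library lay farther from the others than the 95% limit of Dixon's test allows, where chance gives about 1 in 20. At 6 h these were Ednrb in replicate 2 of H-CM (57.5 CPM, the others from 34.4 to 36.8), Erbb3 in replicate 3 of TME-CM (0.822 CPM, the next 24.1), Fabp7 in replicate 4 of unstimulated EGCs (29.7 CPM, the next 6.27) and Sox2 in replicate 3 of H-CM (90.0 CPM, the next 43.8).

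At 12 h they were Ednrb in replicate 3 of unstimulated EGCs (14.0 CPM, the next 25.4), Sox2 in replicate 2 of unstimulated EGCs (11.5 CPM, the next 35.5), Cdh19 in replicate 3 of H-CM (50.2 CPM, the next 20.6) and Fabp7 in replicate 4 of unstimulated EGCs (19.2 CPM, the next 4.50) and of TME-CM (17.2 CPM, the next 4.08). At 24 h the one case was Sox10 in replicate 4 of unstimulated EGCs (81.1 CPM, the next 58.9).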

How the results depend on the processing

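Of 229 recounts of called members under the alternatives, 207 stayed within 1.5 times the reported count. The others were as follows. Without the filter on low counts, 1 member (S100b) was called in TME-CM against H-CM at 12 h and 1 at 24 h, and 1 (Ednrb) in H-CM against unstimulated EGCs at 24 h. With DESeq2's Wald test, 1 was called in each of the latter 2 comparisons and 4 in TME-CM from 6 h to 12 h. With all 36 libraries in 1 model, 2 (Ednrb and Sox2) were called in TME-CM against unstimulated EGCs at 6 h and 0 at 24 h. With the replicate block, 1 (S100b) was called in TME-CM against H-CM at 24 h and 2 in TME-CM from 6 h to 12 h, and no other count of called members changed. Without the 2 libraries under 300000 counts, chosen after seeing the data, 3 were called in that last comparison. Leaving out each library in turn gave 0 to 1 called members in TME-CM against H-CM at 12 h and at 24 h, 0 to 1 in TME-CM against unstimulated EGCs at 12 h (S100b, without replicate 2 of TME-CM) and 1 to 2 at 24 h (Fabp7 added without replicate 4 of unstimulated EGCs), and 0 to 3 in TME-CM from 6 h to 12 h. The share of all genes called was not counted for these recounts, and the cause was not tested.

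Of 397 log2 fold changes under alternatives, 364 kept their direction and side of the threshold and 21 turned sign, in each case for an estimate that was not called, 5 lost a call and 7 gained one. With the replicate block, Cdh19 at 6 h turned to −0.47. The other 20 came from leaving out 1 library, with these ranges for TME-CM against H-CM: at 6 h S100b −0.32 to 0.56, Erbb3 −0.058 to 1.52 and Fabp7 −1.40 to 0.005; at 12 h Erbb3 −0.35 to 0.044, Foxd3 −0.43 to 0.15 and Fabp7 −1.20 to 0.74; at 24 h Sox10 −0.053 to 0.039, Erbb3 −0.19 to 0.12, Cdh19 −0.17 to 0.11 and Sox2 −0.22 to 0.015. Ednrb in TME-CM against unstimulated EGCs at 24 h ran from 1.02 to 1.20 under all 14 alternatives. Same-numbered libraries had correlated deviations over 0.1 in 2 of 12 pairs at 6 h, 3 of 12 at 12 h and 7 of 12 at 24 h, and correlated best with their own number in 3, 3 and 6. The 4 pairs of H-CM and unstimulated EGCs at 24 h all passed that limit (0.106 to 0.227), and in no other comparison of stimulations did every pair pass. With the replicate block, 0 members were called in that comparison, as without it. Without TMM scaling, 8 of 81 group means moved by more than their SD, all at 24 h. Gfap had 0 to 46 counts in a library. At 6 h, 2 libraries had under 300000 counts and the common dispersion was 0.572. In data simulated with the depth and spread of each time, some genes were raised or lowered 4-fold. Of these, 13.9% were called at 6 h, 70.1% at 12 h and 88.9% at 24 h. A gene without a call at 6 h may therefore have changed. Changes under 4-fold were not simulated, so how often a smaller one is called at any of the times is not known. The separate parts of depth and spread were not tested.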
